A study of Mus musculus with 13 samples.

Results

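Neuroblasts are the immature neurons that are added to the adult mouse olfactory bulb, and 9 genes that mark them or the dividing cells they come from are described here. The genes were chosen by name: Dcx, Sox11, Sox4, Dlx1, Dlx2, Dlx5, Cd24a, Mki67 and Top2a. All 9 were found among the 34745 genes of the expression table, and all 9 were among the 17467 genes that passed a filter on low counts.

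The study measured RNA in olfactory bulbs of wild type mice exposed to PM2.5, fine airborne particulate matter. There were 3 libraries of low-dose bulbs (3 mg/kg/3 day) with 4 of untreated controls, called set 1 here, and 3 libraries of high-dose bulbs (10 mg/kg/3 day) with 3 of untreated controls, called set 2 here. The labels write these doses as mg/kg/3 day and do not say whether that is a total or a repeated amount. All animals were C57BL/6 mice of 7 to 8 weeks; the series text calls them male C57BL/6J. The 2 doses thus have separate controls, and the sources used here do not say what the sets stand for, how PM2.5 was given or whether bulbs were pooled. Nothing in the labels says that replicates of a group were separate animals, so p-values measure the spread between libraries, which may be technical.

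In adult rodents, stem cells in the wall of the lateral ventricle give rise to dividing progenitors and then to neuroblasts, which migrate along the rostral migratory stream into the bulb. There they become granule and periglomerular interneurons. Most division takes place before the cells reach the bulb, so bulb tissue is known for strong markers of immature neurons and weak markers of mitosis.

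The libraries held 15387870 to 26989267 counted reads in set 2 and 13032834 to 14665696 in set 1. The labelled tissue was checked by markers of mitral cells, the output neurons of the bulb: all 7 had counts in every library, summing to 1502 to 1790 CPM, the read count scaled to the library's total. The sets differed in more than the dose. Xist, the RNA of the inactive X chromosome of females, was at 0.0992 to 0.555 CPM in set 2 and at 2243 to 2710 CPM in set 1, while 4 Y-linked genes summed to 176 to 230 CPM in set 2 and to 0 to 0.209 CPM in set 1. The set 1 libraries therefore go against the word male in the series text. Each dose is compared below only with the controls of its own set, and levels or responses set across the sets cannot be told apart from this difference. Tests were edgeR's quasi-likelihood test in a single fit of all 13 libraries, with 1 estimate of spread per gene shared by both sets. The p-values were adjusted over all 17467 genes by the Benjamini-Hochberg method, with a threshold of 0.05.

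Upstream sequences show 3 of the genes at the level of DNA. Sox11 and Top2a are shown because their high-dose libraries did not overlap the controls, and Mki67 because it is the other marker of division. Each sequence is the 250 bases before the gene's start in RefSeq (GRCm38.p6), from which 7 of the 9 genes had an entry. Capitals mark CCAAT, the box bound by the factor NF-Y, and TTTGAA or TTCGAA, the forms of the cell cycle genes homology region, on either strand.
Sox11 (chr12:27342719-27342968, minus strand): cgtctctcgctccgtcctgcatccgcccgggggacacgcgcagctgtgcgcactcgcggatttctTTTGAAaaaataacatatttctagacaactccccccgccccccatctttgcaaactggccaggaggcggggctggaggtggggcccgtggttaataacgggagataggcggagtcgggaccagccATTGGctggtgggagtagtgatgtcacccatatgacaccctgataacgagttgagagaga
Mki67 (chr7:135716380-135716629, minus strand): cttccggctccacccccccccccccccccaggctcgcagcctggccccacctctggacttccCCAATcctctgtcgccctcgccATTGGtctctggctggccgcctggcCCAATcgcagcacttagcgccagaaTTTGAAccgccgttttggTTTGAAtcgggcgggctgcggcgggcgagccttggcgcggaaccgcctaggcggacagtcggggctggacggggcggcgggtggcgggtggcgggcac
Top2a (chr11:99024190-99024439, minus strand): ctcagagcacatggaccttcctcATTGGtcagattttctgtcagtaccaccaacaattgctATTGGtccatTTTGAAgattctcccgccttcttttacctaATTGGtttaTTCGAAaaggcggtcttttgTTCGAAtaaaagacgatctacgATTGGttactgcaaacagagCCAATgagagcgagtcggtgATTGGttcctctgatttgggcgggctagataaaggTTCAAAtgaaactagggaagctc
CCAAT occurred 1 time before Sox11, 3 times before Mki67 and 6 times before Top2a. TTTGAA occurred 1 time before Sox11 and 2 times before each of Mki67 and Top2a, and TTCGAA, which reads the same on both strands, was seen 2 times before Top2a. No matches overlapped. Of 32851 windows of the same length before genes, 33.8% held CCAAT, 16% TTTGAA, 1.34% TTCGAA and 6.02% CCAAT together with either of the others. These letters are a description and not shown to be bound sites.

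Levels compared between genes are given per length, as the authors' FPKM, which scales reads to gene length and library total. Sox4, a transcription factor of differentiating neurons, had the top mean FPKM in all 4 groups: 27.1 ± 2.03 in low-dose bulbs, 29.6 ± 2.72 in set 1 controls, 30.8 ± 2.005 in high-dose bulbs and 30.8 ± 1.03 in set 2 controls (SD, n = 3, 4, 3 and 3). Dcx, the microtubule-associated protein doublecortin of migrating neuroblasts, averaged 25.96 ± 0.336 FPKM in low-dose bulbs and 24.2 ± 1.79 FPKM in set 1 controls, where its range overlapped that of Sox4. In set 2 Dcx averaged 17.8 ± 4.22 FPKM in high-dose bulbs and 17.5 ± 2.99 FPKM in controls, below all Sox4 values of those groups. In set 2 controls Cd24a ranked above Dcx by mean, and in the other groups below it. Cd24a, Dlx1 and Dlx2 had group means of 13 to 17.9 FPKM and ranges that overlapped one another in every group, except those of Cd24a and Dlx1 in set 2 controls; in set 2 the range of Dcx overlapped that of Cd24a. Dlx5 had group means of 8.88 to 11.6 FPKM and Sox11 of 6.84 to 9.81 FPKM, and these neighbours overlapped in set 1 controls and in high-dose bulbs but not in the other groups. The proliferation markers lay far below. Mki67 had group means of 0.164 to 0.252 FPKM and Top2a of 0.0998 to 0.217 FPKM, so that in each group the immature neuron genes stood above the mitosis genes by more than any spread between libraries.

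**Figure D1:**
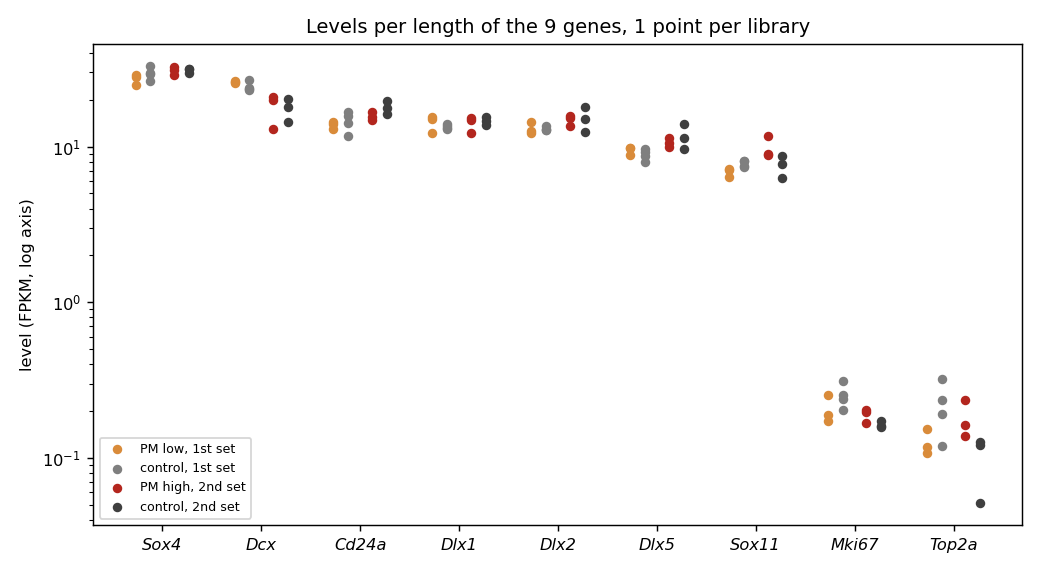
Levels per length of the 9 genes in FPKM on a log axis, 1 point for each of the 13 libraries, with each exposed group left of its controls. Sox4 leads at group means of 27.1 to 30.8 FPKM, and Mki67 and Top2a lie at group means of 0.0998 to 0.252 FPKM.

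At the low dose none of the 9 genes passed the test. The count was 0 of 9 against a background of 0% of all genes tested, since no gene passed in this comparison; at an unadjusted p under 0.05 it was 0 of 9 members and 2.46% of all genes (429). DESeq2 called 0 members and 19 genes. The median log2 fold change of the members was -0.07, beside 0.0024 over all genes. In bulk tissue, fewer cells of a type and less RNA per cell cannot be told apart, and this holds for every value below.

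The migration marker Dcx had 482, 479 and 474 CPM in low-dose bulbs, against 430, 423, 435 and 488 CPM in set 1 controls. The groups overlapped through 1 control library, which was the highest of all 7. The log2 fold change was 0.11 (SE 0.14, 95% interval -0.19 to 0.40), which leaves room for changes of up to 1.32-fold upward. This interval rests on the spread shared by both sets, and Dcx varied less between libraries in set 1 than in set 2, as given below. Dcx lies on the X chromosome (GRCm38, chrX:143855842-143933311).

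Sox11, a transcription factor that acts with Sox4 in immature neurons, had 51.5, 58.9 and 57.8 CPM in low-dose bulbs, against 66.1, 66.7, 60.0 and 60.5 CPM in set 1 controls. All low-dose libraries lay below all controls, the only such case among the 9 genes, where 6.62% of all genes had ranges apart in either direction and 2.91% had the exposed group below. The log2 fold change of -0.18 (95% interval -0.42 to 0.07) did not pass the test (adjusted p = 1, edgeR). Sox4 had 117, 133 and 136 CPM in low-dose bulbs, against 138, 157, 141 and 123 CPM in controls. The groups overlapped, with a log2 fold change of -0.12 (95% interval -0.31 to 0.07).

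The Dlx genes encode homeodomain factors that specify inhibitory interneurons of the bulb. Dlx1 had 127, 163 and 156 CPM in low-dose bulbs, against 146, 137, 141 and 134 CPM in set 1 controls, and its low-dose values lay on both sides of the control range. Dlx2 had 37.2, 44.2 and 38.4 CPM in low-dose bulbs, against 39.0, 39.6, 41.4 and 38.4 CPM in controls. Dlx5 had 30.0, 33.6 and 33.6 CPM in low-dose bulbs, against 32.6, 27.2, 29.6 and 31.2 CPM in controls. None of the 3 had ranges apart, and their log2 fold changes were 0.09 for Dlx1, 0.01 for Dlx2 and 0.10 for Dlx5, with 95% intervals between -0.24 and 0.37 in all. Dlx1 shares 335 of its 5396 exon bases with Dlx1as on the other strand, whose count was 7.74% to 11.7% of that of Dlx1 across the 13 libraries. Sox4 shares 2616 of 4795 exon bases with the lincRNA Gm26735, whose count was 0.15% to 0.713% of that of Sox4. The libraries were stranded, but the sources used here do not give the strand setting of the counting, so reads over these shared bases are uncertain.

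Cd24a, a surface protein used to sort neuroblasts, had 23.2, 25.7 and 25.04 CPM in low-dose bulbs, against 25.1, 28.0, 20.7 and 29.5 CPM in set 1 controls. All low-dose values lay inside the control range, with a log2 fold change of -0.07 (95% interval -0.33 to 0.19).

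Both mitosis genes had few reads. Mki67, which coats mitotic chromosomes, had 28, 25 and 37 reads or 1.87, 1.73 and 2.504 CPM in low-dose bulbs, against 41, 36, 34 and 28 reads or 3.10, 2.53, 2.37 and 1.98 CPM in set 1 controls. Top2a, the topoisomerase that untangles chromosomes before they separate, had 17, 18 and 24 reads or 1.13, 1.25 and 1.62 CPM in low-dose bulbs, against 45, 18, 29 and 35 reads or 3.40, 1.27, 2.02 and 2.48 CPM in controls. The ranges overlapped for both genes, for Top2a through 1 control library. The log2 fold change of Top2a was -0.77 (SE 0.38, 95% interval -1.57 to 0.03) and that of Mki67 was -0.29 (95% interval -0.78 to 0.20), both with an adjusted p of 1 (edgeR). The interval of Top2a spans 0.336 to 1.02 times the control level.

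**Figure D2:**
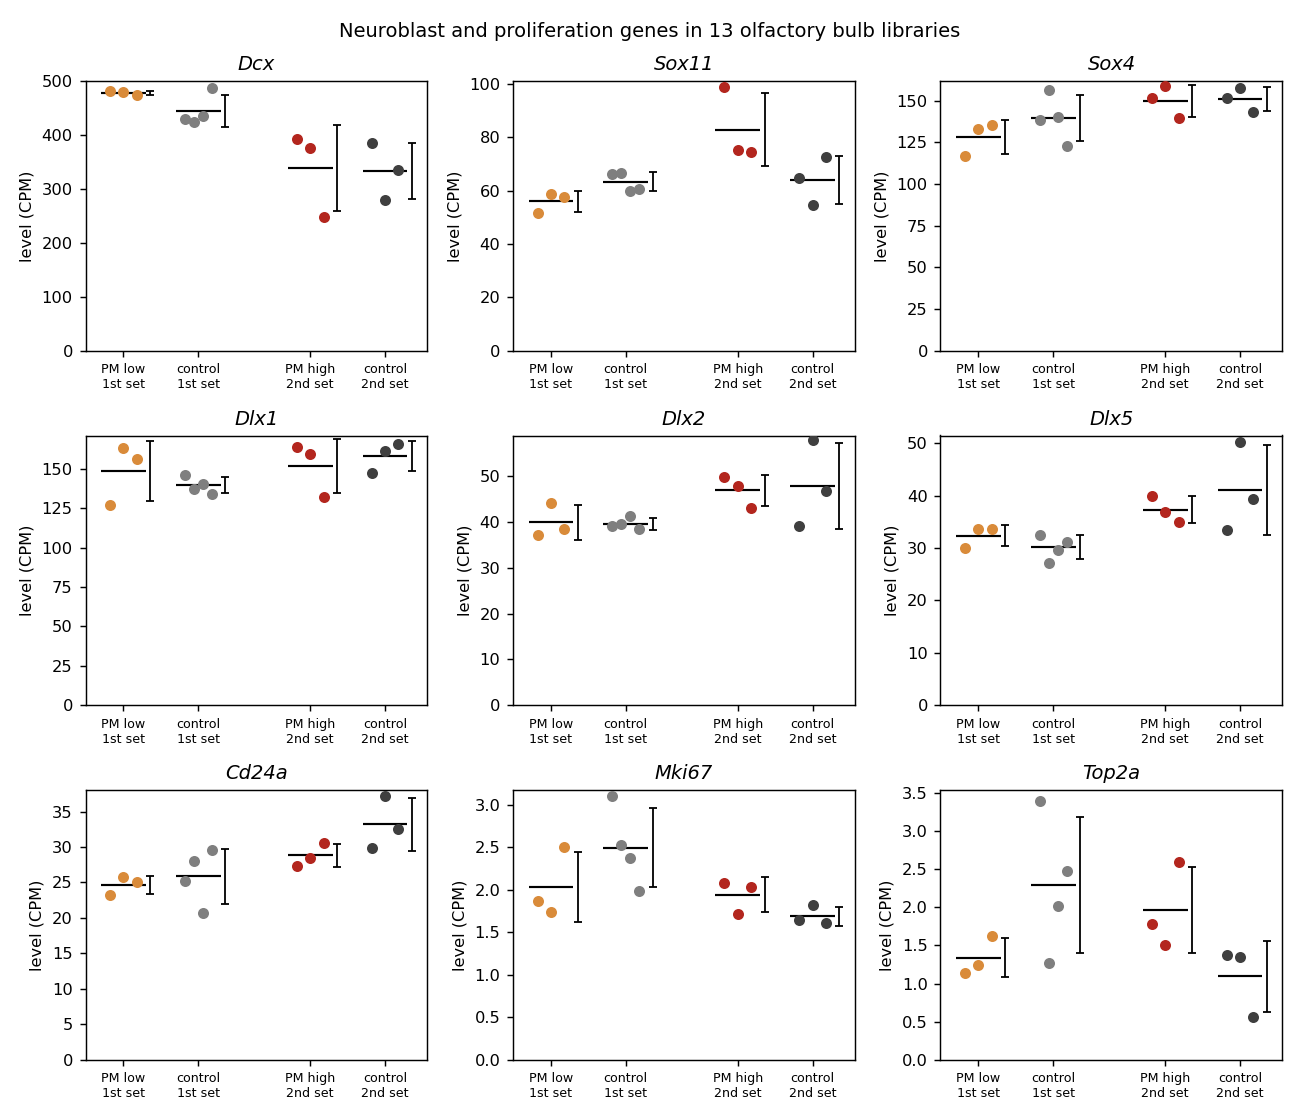
CPM of each of the 9 genes in all 13 libraries (points), with the group mean (bar) and SD (line to the right of the points), each exposed group left of its controls. Sox11 has all 3 low-dose libraries below and all 3 high-dose libraries above the controls of their own set, while Dcx and Dlx2 overlap their controls at both doses.

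At the high dose the count was again 0 of 9 members, against a background of 0.641% of all genes tested (112 genes). Sox11 was the member nearest to the threshold, and at an unadjusted p under 0.05 it was the only 1 of the 9, where 9.65% of all genes were. DESeq2 called 0 members and 291 genes. The median log2 fold change of the members was -0.01, the same as over all genes to this precision.

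Sox11 had 98.7, 75.4 and 74.6 CPM in high-dose bulbs, against 64.8, 54.6 and 72.5 CPM in set 2 controls. All high-dose libraries lay above all controls, by a narrow gap between the lowest exposed and the highest control library. Such separation was seen in 10.4% of all genes in either direction and in 6.08% with the exposed group above, and in 2 of the 9 members, both above. The log2 fold change was 0.37 (SE 0.12, 95% interval 0.11 to 0.64), or 1.30-fold, with an adjusted p of 0.2501 (edgeR). Without high-dose replicate 1, the library with the most Sox11, it was 0.22 (adjusted p = 0.638), and with each library left out in turn it was between 0.22 and 0.47. Sox4, its partner, did not show this: it had 152, 159 and 140 CPM in high-dose bulbs, against 152, 158 and 143 CPM in controls, with a log2 fold change of -0.0088 (95% interval -0.21 to 0.19) whose sign was positive with upper-quartile scaling.

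Top2a was the second member with separate groups. It had 36, 30 and 65 reads or 1.79, 1.51 and 2.59 CPM in high-dose bulbs, against 21, 35 and 9 reads or 1.38, 1.35 and 0.555 CPM in set 2 controls. The log2 fold change was 0.83 (SE 0.39, 95% interval -0.00025 to 1.66), with an adjusted p of 0.518 (edgeR). It was 0.53 without control replicate 3, the library with 9 reads, and 0.59 without high-dose replicate 3. Mki67 had 42, 34 and 51 reads or 2.08, 1.71 and 2.03 CPM in high-dose bulbs, against 25, 47 and 26 reads or 1.64, 1.81 and 1.603 CPM in controls. Its ranges overlapped, and its log2 fold change was 0.20 (95% interval -0.32 to 0.71).

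Dcx varied more between libraries in set 2 than in set 1. It had 393, 375 and 247 CPM in high-dose bulbs, against 384, 280 and 336 CPM in set 2 controls, with a coefficient of variation of 23.5% in high-dose bulbs and 15.6% in controls, beside 0.852% in low-dose bulbs and 6.69% in set 1 controls. The groups overlapped, and the log2 fold change was 0.02 (SE 0.15, 95% interval -0.29 to 0.34). As at the low dose, this interval rests on the spread shared by both sets and not on that of set 2 alone. The log2 fold change at the high dose was sensitive to single libraries. It ranged from -0.10 to 0.22 when 1 library at a time was left out. The libraries with the lowest Dcx of their groups were high-dose replicate 3 and control replicate 2. Each also had the most counted reads of its group, 25548559 in high-dose replicate 3 and 26989267 in control replicate 2. Each had, too, the most RNA of cortex and striatum markers in its group. What depth or these markers contribute to Dcx was not tested. These 12 genes were listed as markers of neurons of that neighbouring tissue. Whether neurons of the bulb itself also make these RNAs was not tested, so their sum is not a measure of neighbouring tissue alone. All 12 had counts in every library of every group. They summed to 901, 891 and 1345 CPM in high-dose bulbs and to 870, 1077 and 769 CPM in set 2 controls. The same markers summed to 732, 722 and 734 CPM in low-dose bulbs and to 763, 795, 772 and 689 CPM in set 1 controls. Without both libraries, an alternative chosen after seeing the data, 0 members were called at either dose.

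The Dlx genes and Cd24a showed no separation in set 2. Dlx1 had 164, 159 and 132 CPM in high-dose bulbs, against 147, 162 and 166 CPM in controls. Dlx2 had 49.8, 47.9 and 43.1 CPM in high-dose bulbs, against 39.0, 57.8 and 46.8 CPM in controls, and all high-dose values lay inside the control range. Dlx5 had 40.0, 37.0 and 34.9 CPM in high-dose bulbs, against 33.5, 50.3 and 39.3 CPM in controls, again inside the control range. The log2 fold changes were -0.06 for Dlx1 (95% interval -0.28 to 0.16), -0.03 for Dlx2 (-0.30 to 0.23) and -0.14 for Dlx5 (-0.42 to 0.14). All 3 were positive without both libraries highest in cortex and striatum markers, at 0.04 for Dlx1, 0.18 for Dlx2 and 0.07 for Dlx5. Cd24a had 27.4, 28.5 and 30.6 CPM in high-dose bulbs, against 29.8, 37.2 and 32.5 CPM in controls, with a log2 fold change of -0.20 (95% interval -0.48 to 0.07).

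The high-dose response was also set against the low-dose response, each relative to its own controls. None of the 9 members passed this test, where 1 of 17467 genes did (0.00573%). At an unadjusted p under 0.05 there were 2 members, Sox11 and Top2a, where 5.98% of all genes were, and DESeq2 called 0 members. The log2 difference was 0.55 for Sox11 (SE 0.17, 95% interval 0.19 to 0.91, adjusted p = 0.616, edgeR) and 1.599 for Top2a (SE 0.54, 95% interval 0.45 to 2.75, adjusted p = 0.680). For both genes the difference joins a negative value at the low dose to a positive one at the high dose, and the doses differ in set as well as in amount. The mean of both responses also gave 0 of 9 members, with 0 at an unadjusted p under 0.05, where 6.45% of all genes were, and 0 by DESeq2, against a background of 0.492% of all genes past the adjusted threshold.

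**Figure D3:**
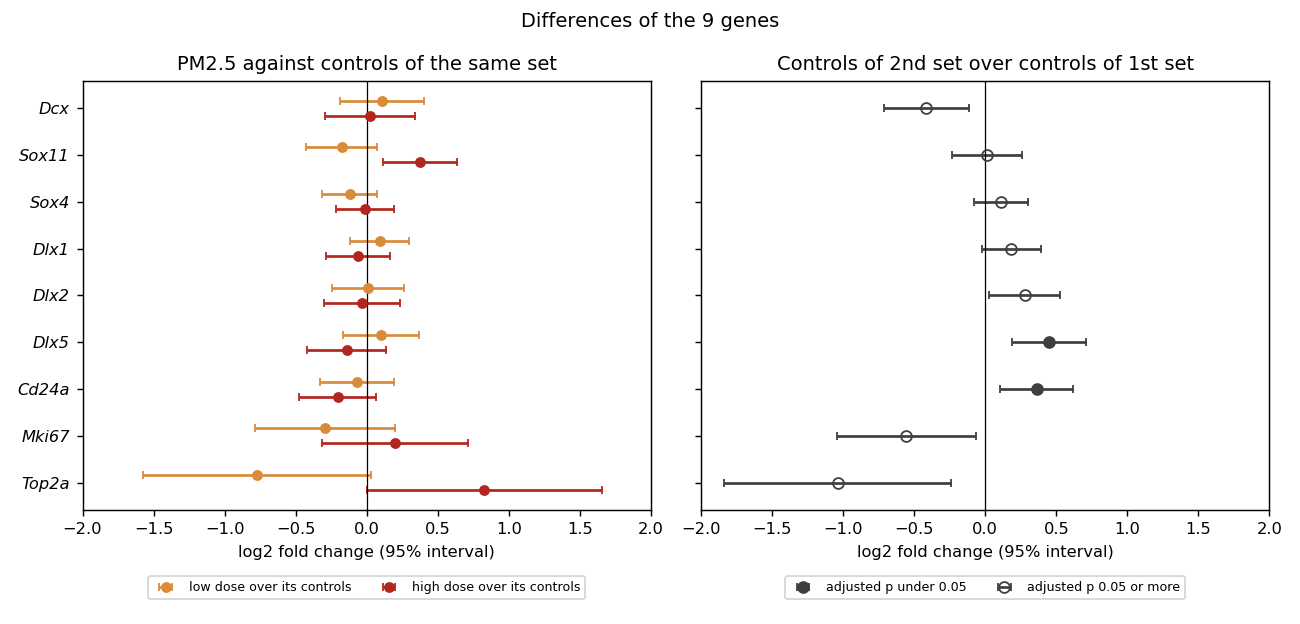
Log2 fold changes of the 9 genes (points) with 95% intervals (lines): the left panel sets each dose against the controls of its own set, and the right panel sets set 2 controls over set 1 controls. The high-dose interval of Sox11, 0.11 to 0.64, lies above 0 although its adjusted p was 0.2501, and Dlx5 and Cd24a (filled points) passed the test between the controls.

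Members passed the test between the untreated bulbs of the sets. Dlx5 and Cd24a were higher in set 2 controls than in set 1 controls, 2 of 9 members against a background of 19.3% of all genes in either direction and 10.5% upward. Dlx5 averaged 41.0 ± 8.56 CPM in set 2 controls and 30.1 ± 2.30 CPM in set 1 controls (SD, n = 3 and 4), which gives a log2 fold change of 0.45 with an SE of 0.12 (adjusted p = 0.0220, edgeR). Cd24a averaged 33.2 ± 3.74 CPM in set 2 controls and 25.8 ± 3.86 CPM in set 1 controls, which gives 0.36 on the log2 scale with an SE of 0.12 (adjusted p = 0.0474). The ranges did not overlap for either gene. The Cd24a call held in 7 of 22 alternatives and was lost in 10 of the 13 fits that left out 1 library, with the 1 CPM filter and with both FPKM fits. The Dlx5 call held in 19 of 22 and was lost without set 1 control replicate 2 (adjusted p = 0.0651), without set 2 control replicate 2 (0.133) and without both libraries highest in cortex and striatum markers (0.0854). Without set 2 control replicate 2 the log2 fold change was 0.28 for Dlx5 and 0.28 for Cd24a (adjusted p = 0.192). With upper-quartile scaling the split of all calls was 1307 higher and 1931 lower, beside 1837 higher and 1527 lower; Dlx5 kept its call, Cd24a did not, and Dcx was called lower.

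Other members came near the threshold between the controls. Dcx averaged 333 ± 52.2 CPM in set 2 controls and 444 ± 29.7 CPM in set 1 controls, with no overlap and a log2 fold change of -0.41 (adjusted p = 0.0506, edgeR). Dcx was called by DESeq2 (adjusted p = 0.0347) and without both libraries highest in cortex and striatum markers (log2 fold change -0.29, adjusted p = 0.0259, edgeR). Further calls of Dcx came with upper-quartile scaling, limma-voom, both FPKM fits and the 1 CPM filter. It was also called without set 2 control replicate 1 and without high-dose replicate 3. Top2a averaged 1.10 ± 0.468 CPM in set 2 controls and 2.29 ± 0.892 CPM in set 1 controls (log2 fold change -1.04, adjusted p = 0.0646, edgeR). Mki67 averaged 1.69 ± 0.113 CPM in set 2 controls and 2.496 ± 0.462 CPM in set 1 controls (-0.56, adjusted p = 0.0995, edgeR). Top2a was called lower by DESeq2 (adjusted p = 0.0493) and without set 1 control replicate 2 (0.0416, edgeR). Dlx2 was called higher without set 2 control replicate 1 (adjusted p = 0.0244, edgeR). Ranges were apart for 5 of the 9 members, Dlx1, Dlx5 and Cd24a above and Dcx and Mki67 below, where 30.4% of all genes had ranges apart, 15.8% above and 14.6% below. The sets differ in Xist, Y-linked genes and read depth as given above, and what each contributes was not tested.

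The members did not move as a block from library to library. Over the 36 pairs of members, Pearson's r of group-centred log2 CPM across 13 libraries was positive in 22 and negative in 14, with a median of 0.09. These values are a description, since the libraries share their scaling. Dlx2 and Dlx5 had the highest r, 0.83 (Spearman's rho 0.54), and Dlx1 and Dlx2, neighbours on chromosome 2, had 0.60 (rho 0.64). Mki67 and Top2a, both of dividing cells, had 0.41 (rho 0.49). Dcx had 0.48 with Sox11 but -0.34 with Cd24a, the lowest of all pairs.

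The genes whose pattern was most like that of Dcx were chosen by the highest r over the same 13 libraries among 10236 genes at a mean of at least 10 CPM. They were Sestd1 (r = 0.98), Pcdhb16 (0.97), Tmem170b (0.97), Lats1 (0.97) and Apc (0.97). High values of r follow from this choice and are a description. With high-dose replicates 3 and 1, the libraries farthest from the median, left out, r was 0.99, 0.96, 0.95, 0.93 and 0.92 in the same order. Set 2 control replicates 2 and 1 stayed in, with Dcx at -0.24 and 0.22 from their group mean in log2 CPM. High-dose replicate 1 was at 0.25, so these values can still rest on a few set 2 libraries. None of the 9 members was among the genes most like Dcx. Sestd1 had 129, 129 and 98.2 CPM in high-dose bulbs, against 141, 107 and 128 CPM in set 2 controls, and in both set 2 groups it was lowest in the same library as Dcx; in the set 1 groups it was not.

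Genes around the members were read in 6 lists: 15 stem and progenitor genes, 25 of the cell cycle, 22 further neuroblast genes, 25 of migration and guidance, 15 of maturing interneurons and 19 growth factors and their receptors or targets. At the low dose 0 genes of each list passed edgeR's test, where 0% of all genes did, and 0 by DESeq2. At an unadjusted p under 0.05 (edgeR) there were 2 growth factor genes and none of the others, where 2.46% of all genes were. The smallest p in the progenitor list belonged to Thbs4 and Fabp7. Thbs4 had 1.06 ± 0.850 CPM in low-dose bulbs and 2.26 ± 0.794 CPM in set 1 controls (SD, n = 3 and 4). Fabp7, a fatty acid binding protein, had 171 ± 12.6 CPM in low-dose bulbs and 228 ± 34.5 CPM in set 1 controls. Which cells of the bulb make Fabp7 was not tested. The median log2 fold change was -0.14 for the progenitor list, with 11 of 15 genes negative, beside 0.0024 over all genes. For the maturation list it was 0.10, with 13 of 15 genes positive, and for the further neuroblast list -0.04, with 16 of 22 negative. The cell cycle, migration and growth factor lists had medians of -0.02, -0.01 and 0.02. How many of all genes had each sign was not counted.

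At the high dose 1 of the 117 measured genes of these lists passed (0.855%), beside 0.641% of all genes, a share near the background. It was Neurod1, a transcription factor of neuronal differentiation, in the further neuroblast list. Most of that list went the other way: 16 of its 22 genes had a negative log2 fold change and 6 a positive one. The list median was -0.05, beside -0.01 over all genes. Neurod1 had 9.32, 9.45 and 8.38 CPM in high-dose bulbs, against 3.55, 5.10 and 3.70 CPM in set 2 controls. All high-dose libraries lay above all controls, and the log2 fold change was 1.12 (SE 0.18, adjusted p = 0.0102, edgeR). In the low-dose set Neurod1 had 7.88, 7.42 and 5.75 CPM in low-dose bulbs, against 6.80, 6.89, 5.93 and 7.08 CPM in set 1 controls, with a log2 fold change of 0.07. The set 2 controls were lower than the set 1 controls in Neurod1, by a log2 fold change of -0.68 (adjusted p = 0.0159), and the high response minus the low response was 1.05 with an adjusted p of 0.544. Neurod1 passed in 21 of 24 alternatives; the call was lost without set 2 control replicate 3 (adjusted p = 0.0590), with a replicate block (0.0963) and in a fit of set 2 alone (0.189). Neurod1 is also made by excitatory neurons of the forebrain. Of the 12 cortex and striatum markers, 10 had a positive log2 fold change at the high dose, with a median of 0.49. None of them passed, and 6 had an unadjusted p under 0.05 (edgeR). Without both libraries highest in these markers the log2 fold change of Neurod1 was 1.36 (adjusted p = 0.00715). Those libraries held the highest control value and the lowest high-dose value of Neurod1. A forebrain source of Neurod1 was not tested.

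The rest of the 6 lists did not pass at the high dose, where the counts were 0 of 15 progenitor, 0 of 21 measured cell cycle, 1 of 22 further neuroblast, 0 of 25 migration, 0 of 15 maturation and 0 of 19 growth factor genes. At an unadjusted p under 0.05 (edgeR) there were 1, 2, 4, 5, 4 and 0 in the same order, where 9.65% of all genes were. DESeq2 called 2 further neuroblast genes, 1 maturation gene and 0 of the others. Mcm3, a subunit of the replication helicase, had the smallest p of the cell cycle list, with 4.15 ± 0.240 CPM in high-dose bulbs and 2.40 ± 0.0386 CPM in set 2 controls (log2 fold change 0.79, adjusted p = 0.199, edgeR). Dclk1, a kinase related to doublecortin, averaged 997 ± 145 CPM in high-dose bulbs and 1325 ± 81.2 CPM in set 2 controls (log2 fold change -0.41, adjusted p = 0.142). Gng4, a G protein subunit, averaged 779 ± 33.6 CPM in high-dose bulbs and 984 ± 117 CPM in set 2 controls (-0.34, adjusted p = 0.154), and Calb1, calbindin of periglomerular cells, averaged 21.6 ± 9.10 CPM in high-dose bulbs and 12.9 ± 2.76 CPM in set 2 controls (0.75, adjusted p = 0.298). High-dose replicate 3, the library highest in cortex and striatum markers, had 32.1 CPM of Calb1 and the other high-dose libraries 16.2 and 16.5 CPM; without it the log2 fold change was 0.36 (adjusted p = 0.616). Efnb2, an ephrin ligand, and Robo1, a Slit receptor, led the migration list with 0.29 for Efnb2 (adjusted p = 0.301) and 0.21 for Robo1 (adjusted p = 0.319) on the log2 scale. The median log2 fold change was 0.16 for progenitor and -0.09 for maturation genes, beside -0.01 over all genes. Each had the opposite sign to the low dose, and the doses differ in set as well as in amount. The further neuroblast genes summed to 3514 to 3690 CPM in high-dose bulbs and to 3852 to 4421 CPM in set 2 controls. Maturation genes summed to 5546 to 6280 CPM in high-dose bulbs and to 6474 to 7210 CPM in those controls. All high-dose sums of these lists lay below all control sums. In the other lists the ranges overlapped, and the sums were not tested.

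**Figure D4:**
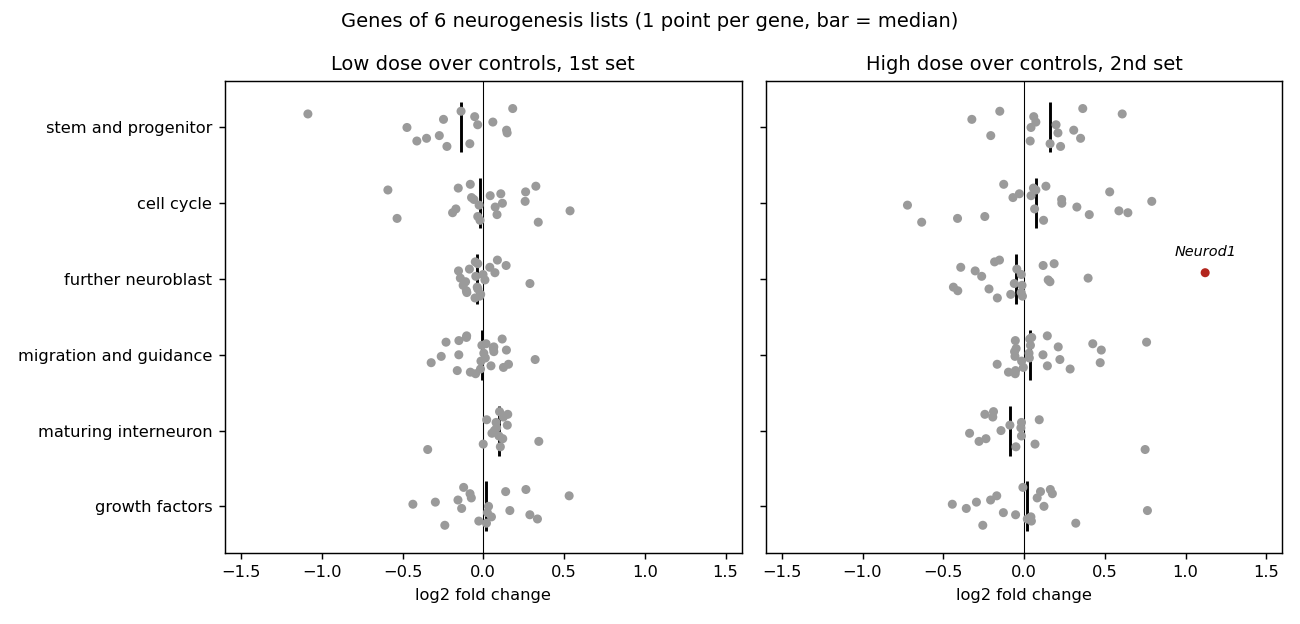
Log2 fold changes of the measured genes of 6 neurogenesis lists (points; red for an adjusted p under 0.05) with the list median (bar), at the low dose on the left and at the high dose on the right. Neurod1, at 1.12 in the high-dose panel, is the single gene that passed.

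Between the untreated groups 27 of the 117 measured genes of the 6 lists passed (23.1%), beside 19.3% of all genes, a share near the background. Of the progenitor genes 4 of 15 were lower in set 2 controls, among them Egfr (log2 fold change -0.69, adjusted p = 0.00288, edgeR) and Notch1 (-0.76, adjusted p = 0.00555), receptors of dividing progenitors and stem cells. Of the further neuroblast list 3 genes were higher and 1 was lower in set 2 controls. Tubb3, a tubulin of young neurons, was higher by 0.46 (adjusted p = 0.0127) and Stmn2, a stathmin of growing neurites, by 0.51 (adjusted p = 0.0211). In the migration list 2 of 25 genes were higher and 6 lower, and in the maturation list 4 of 15 were higher and 1 lower. Of the cell cycle list 2 of 21 measured genes were higher and 1 lower, and of the growth factor list 3 of 19 were lower. Among all 17467 genes 1837 were higher and 1527 lower.

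Some markers of astrocytes, microglia and blood cells passed at the high dose, where 0.641% of all genes did. At an unadjusted p under 0.05 (edgeR) there were 4 of 10 astrocyte, 3 of 10 microglia and 9 of 10 measured blood markers. Of all genes 9.65% were under that value. Of 10 astrocyte markers 1 passed: Gfap, an intermediate filament, at 539 ± 98.6 CPM in high-dose bulbs and 211 ± 33.4 CPM in set 2 controls (log2 fold change 1.36, adjusted p = 0.00171, edgeR). The 10 astrocyte markers summed to 4326 to 4766 CPM in high-dose bulbs and to 3161 to 4067 CPM in set 2 controls. Of 10 microglia markers 1 passed, the complement subunit C1qa (0.84, adjusted p = 0.0360), and they summed to 358 to 437 CPM in high-dose bulbs and to 287 to 339 CPM in set 2 controls. The C1qa call held in 12 of 24 alternatives. Of 12 blood cell markers, 10 of which passed the filter and 10 of which had counts in every library of set 2 groups, 2 passed: S100a9, a neutrophil calcium-binding protein (2.59, adjusted p = 0.00845), and Ptprc, the leukocyte surface protein CD45 (1.15, adjusted p = 0.0315; called in 10 of 24 alternatives). The blood markers summed to 135, 232 and 323 CPM in high-dose bulbs and to 131, 112 and 106 CPM in set 2 controls, so that all high-dose sums were above all control sums. No gene passed edgeR's test among the markers of oligodendrocyte precursors, ependymal cells, endothelium, sensory neurons, cortex and striatum, or mitral cells; at an unadjusted p under 0.05 there were 2, 0, 3, 2, 6 and 0 in the same order, and DESeq2 called 1 gene, a cortex and striatum marker. The part of these markers in the values of the 9 members was not tested.

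**Figure D5:**
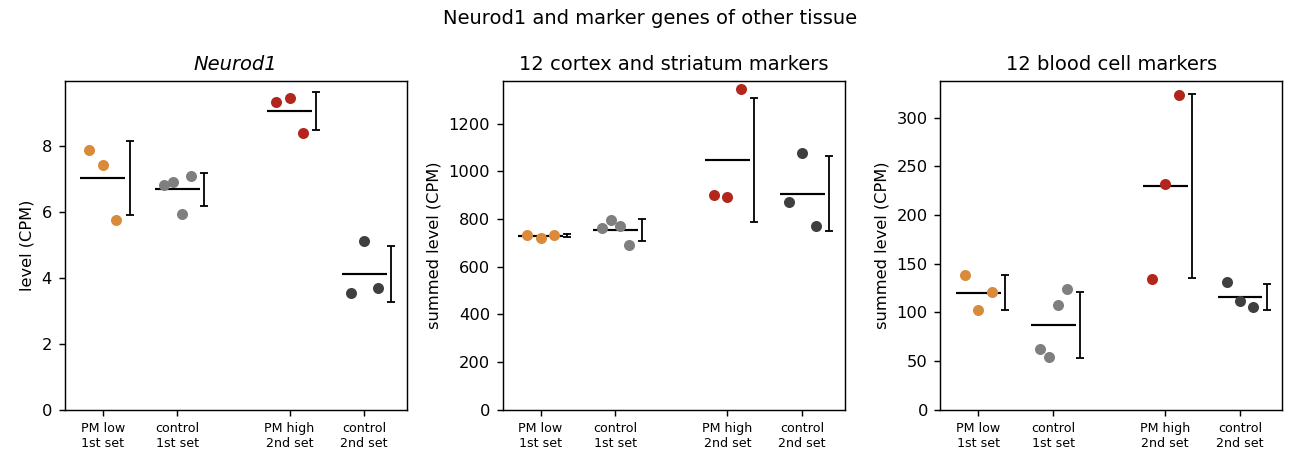
Neurod1 in CPM (left), and the summed CPM of 12 cortex and striatum markers (centre) and 12 blood cell markers (right), with points for libraries, bars for group means and lines for SD. Neurod1 lies at 8.38 to 9.45 CPM in the 3 high-dose libraries, above all set 2 controls, and the cortex and striatum sum reaches 1345 CPM in high-dose replicate 3.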

How the data were processed

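RNA was made into stranded total RNA libraries, per the labels' protocols, and aligned with HISAT2 to mm10, per the submitters' processing notes. The authors deposited a table of read counts and FPKM per gene and library; the sources used here name neither the counting tool nor its strand setting. The deposited FPKM equalled counts per length and library total within a relative deviation of 3.1e-05 for the members. The deposited counts were tested in R 4.3.3 with edgeR 4.0.16 (TMM factors, filterByExpr, robust quasi-likelihood fit, 9 residual degrees of freedom). CPM are deposited counts scaled to each library's total counted reads times its TMM factor. The 1 CPM filter used the total without that factor. Standard errors were taken from the F statistic. The test was checked on simulated data. Alternatives used DESeq2 1.42.0, limma 3.58.1 (voom, and FPKM with pseudocounts of 1 and 0.1), other scalings and filters, separate fits, a replicate block and leaving out libraries. Replicate pairs of a group differed beyond sampling noise (chi-square per gene at least 6.09). Genes outside the members were named by rule: per list the 2 with the smallest p at each dose and those that passed. The genes named in the text are a selection of these. The members and lists were chosen with earlier results of these data known. No column was left unmapped.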

Additional observations from a re-analysis of the deposited data

How the results depend on the processing

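No member was called at either dose, in the difference or in the mean under any alternative. Counts of genes called moved. At the low dose (0) they were 19 with DESeq2, 2 with limma-voom, 2 with FPKM + 1, 9 in separate fits, 1 without both libraries highest in cortex and striatum markers, and 0 to 2 with 1 library left out. At the high dose (112) they were 291 with DESeq2, 69 with at least 1 CPM in every library, 4 in separate fits, 5 with the replicate block, and 21 (without set 2 control replicate 3) to 139. For the difference (1) they were 15 with DESeq2, 0 with limma-voom, FPKM + 1 or the block, 2 unfiltered, and 0 to 6. For the mean (86) they were 195 with DESeq2, 44 with the 1 CPM filter, 5 with the block, and 36 to 93. Between controls (3364) they were 1340 to 4073, and members called were 4 with DESeq2, 1 without both libraries, and 0 to 4 with 1 library left out. The causes were not tested.

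Signs turned for these values, none of them called. Sox4 at the high dose was 0.0019 with upper-quartile factors. Sox11 between controls was -0.048 with upper-quartile factors, -0.00064 with limma-voom, -0.040 with FPKM + 1, -0.046 with FPKM + 0.1 and -0.022 with the 1 CPM filter. The Top2a mean was -0.0045 with FPKM + 1. With the block, Dlx2 at the low dose was -0.0062, Cd24a at the low dose 0.010 and the Dlx5 mean 0.00060. Without both libraries, at the high dose Sox4 was 0.063, Dlx1 0.036, Dlx2 0.18 and Dlx5 0.071, the Dlx2 difference was 0.17, and the means were 0.092 for Dlx2, 0.085 for Dlx5 and -0.0062 for Top2a.

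With 1 library left out, the low-dose values ran from -0.073 to 0.060 for Dlx2 and from -0.16 to 0.0012 for Cd24a. High-dose values ran from -0.10 to 0.22 for Dcx, -0.055 to 0.054 for Sox4, -0.12 to 0.044 for Dlx1, -0.14 to 0.11 for Dlx2 and -0.25 to 0.018 for Dlx5. Differences ran from -0.21 to 0.11 for Dcx and -0.15 to 0.099 for Dlx2. Means ran from -0.027 to 0.068 for Dlx1, -0.065 to 0.061 for Dlx2, -0.073 to 0.061 for Dlx5, -0.14 to 0.013 for Mki67 and -0.12 to 0.15 for Top2a. Sox11 between controls ran from -0.084 to 0.12.

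Replicate numbers did not pair the libraries, so the block compares libraries that share only a number: same-numbered deviations correlated at 0.0042, 0.058 and 0.012 in set 1 and at 0.13, -0.15 and -0.34 in set 2. No value with the block was had between controls, separate fits gave the dose comparisons only, and Top2a has no value under the 1 CPM filter. Depth limits Mki67 and Top2a, with 9 to 65 reads per library. Top2a also shares 122 of its 9013 exon bases with the snoRNA Gm23451 on the same strand, whose reads were not examined.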
